A study of Mus musculus with 4 samples.

Results

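The melanocyte-rich hair bulb spots were 256 of 6411 spots of a spatial transcriptomic map of mouse dorsal skin. They were the spots in which the RNA of pigment-making genes was most concentrated. Each spot was scored as the mean, over Mlana, Dct, Tyrp1, Pmel, Tyr, Trpm1, Slc45a2 and Slc24a5, of the natural log of 1 plus the UMIs of the gene per 10000 UMIs of the spot (a UMI, or unique molecular identifier, stands for 1 captured RNA molecule). The highest 4% of spots in each slice were taken as members, chosen by these measured values, among spots with at least 250 genes detected. This gave 66, 70, 62 and 58 members in slices 1 to 4. A spot is a small area of tissue that can hold several cells of different types, so the members are regions rich in melanocyte RNA and not isolated melanocytes.

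All mice carried Krox20-CreERT and R26-tdTomato. Dorsal skin was taken at P38 from animals that had received 4-hydroxytamoxifen at P2, and no other genotype or treatment was sampled. Cre activity in these mice follows Krox20, a gene of upper follicle and sebaceous gland cells, and the tdTomato reporter was not used to choose any spot. Sections of the same 3 mice lay on each of the 4 slices, so the slices were technical replicates of the same animals. The paper excluded a further section for its distorted structure, and its spots may be among those used here. The p-values therefore measure the spread between slices and not the spread between mice.

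Hair pigment is made by melanocytes that sit in the bulb of a growing follicle, above the dermal papilla and beside the matrix cells that form the hair shaft. They build pigment in melanosomes, organelles related to lysosomes, and hand these over to the keratinocytes of the precortex. MITF, SOX10 and PAX3 are transcription factors of the lineage, KIT, EDNRB and MC1R are its receptors, and TYR, TYRP1 and DCT are the enzymes that make melanin.

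The short sequence CATGTG is the core of the element that MITF binds upstream of pigment genes, and TCATGTG is its longer form. Both were searched on either strand (as CATGTG or CACATG, and as TCATGTG or CACATGA, the longer form containing the shorter) in the 250 bases before the start of each gene, in mouse RefSeq promoters of build GRCm38.p6. The 8 score genes were looked up together with the 13 other genes of the melanocyte lists described below that were called higher in all 3 comparisons, 21 genes in all, of which 14 had a promoter in the table. Trpm1 and Rab27a had more than 1, which made 16 promoters, of which 8 held the shorter sequence and 7 held the longer one. The shorter sequence was found in 5 of 6 promoters of score genes and in 3 of 10 promoters of the others, against 12.3% of all 32851 promoters, and 3.25% of all promoters held the longer form. A match is a description of these letters and not evidence of a bound site. The stretches below are given 5′ to 3′ on the strand of the gene, and the capitals mark the matched letters. Dct and Mc1r each held 2 matches, which in Mc1r lie in the same stretch. Trpm1, a cation channel gene of melanocytes, has its stretch at chr7:64153670-64153723 on the plus strand. The stretch of Tyr lies at chr7:87493513-87493557 on the minus strand, those of Dct at chr14:118052449-118052496 and chr14:118052367-118052420 on the minus strand and that of Tyrp1 at chr4:80834143-80834196 on the plus strand. That of Slc24a5, a melanosomal cation exchanger gene, lies at chr2:125068090-125068126 on the plus strand. The remaining 3 genes were outside the score, with Mc1r at chr8:123407007-123407060, Oca2 at chr7:56239549-56239602 and Tspan10 at chr11:120442586-120442630, all on the plus strand.
Tyr: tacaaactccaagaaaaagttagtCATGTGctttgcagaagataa
Tyrp1: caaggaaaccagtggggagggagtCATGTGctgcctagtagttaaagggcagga
Dct, farther match: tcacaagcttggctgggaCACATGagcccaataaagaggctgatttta
Dct, nearer match: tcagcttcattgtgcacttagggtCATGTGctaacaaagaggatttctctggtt
Trpm1: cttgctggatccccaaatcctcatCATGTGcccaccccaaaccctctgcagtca
Slc24a5: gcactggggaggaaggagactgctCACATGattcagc
Mc1r: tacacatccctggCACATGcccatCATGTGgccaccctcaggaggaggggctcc
Oca2: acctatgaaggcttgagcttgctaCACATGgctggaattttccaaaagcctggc
Tspan10: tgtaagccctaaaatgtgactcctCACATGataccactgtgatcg

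The slices held 26910422, 24128004, 21384253 and 19393026 UMIs over tissue. Members were deeper than the rest. Their median UMIs per spot were 23976, 24640, 18592 and 20198.5 in slices 1 to 4, against 14350, 11689, 11667 and 11454 in the other spots. Their median number of genes detected was 5262.5, 5174, 4933 and 5072, against 3932, 3478, 3568 and 3603.5. The mitochondrial share of UMIs was lower in members, at 2.54%, 3.01%, 3.16% and 3.73%, than in other spots of the same slices, at 3.50%, 4.56%, 4.73% and 5.32%. The part of depth in the results below was not tested beyond a score made after thinning every spot to 5000 UMIs.

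The score formed a continuous range and not a separate class. The lowest member and the highest non-member scored 0.911 against 0.911 in slice 1, 0.828 against 0.827 in slice 2, 0.936 against 0.935 in slice 3 and 0.953 against 0.944 in slice 4. The median score of members was 1.34, 1.23, 1.42 and 1.51, and that of other spots was 0.261, 0.179, 0.200 and 0.220. All 8 genes were detected in 36, 33, 28 and 34 members, and every member held at least 4 of them. A member held a median of 79.5, 62.5, 72.5 and 82.5 UMIs of the score genes, against 4, 2, 3 and 3 in the other spots, and the shallowest member rested on 7 such UMIs.

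Because they chose the members, the 8 score genes are given as a description only. Mlana, a melanosomal membrane protein gene, was at 711, 562, 680 and 730.5 UMIs per 1000000 UMIs of the same spots (CPM) in the members of slices 1 to 4 and at 50.01, 37.1, 40.0 and 37.1 CPM in the other spots. Dct was at 1244, 1109, 1276 and 1359 CPM in members and at 113, 91.5, 94.0 and 89.4 CPM elsewhere. The 4 slices thus lay close together, with slice 2 the lowest for both genes. Members held 6.38% ± 0.48 (SD, n = 4 slices) of all UMIs but 52.7% ± 3.30 of those of Mlana, and between 42.7% and 50.5% of those of the other 7 score genes. When spots were instead ranked by Mlana, Dct, Tyrp1 and Pmel alone, the genes left out still stood apart, with Trpm1 at 442 ± 49.6 CPM in the chosen spots against 34.7 ± 4.50 elsewhere and Tyr at 95.3 ± 19.2 against 7.62 ± 1.45. Ranked by the other 4 genes, the chosen spots held Mlana at 692 ± 92.8 CPM against 43.4 ± 6.68. These rankings shared 91.0% and 78.9% of their spots with the members, so the values describe the score genes and are no separate check of the label.

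Members lay deep in the skin and in small groups, which bears on the hair bulb part of their label. Over the slices, 65.2%, 74.3%, 59.7% and 65.5% of them touched another member on the grid, in which a spot has 6 neighbours, and they formed 36, 38, 38 and 35 separate groups of at most 9, 6, 6 and 6 spots. Median distances to the nearest epidermis-rich spot (the highest 4% by Krt1, Krt10, Lor and Krtdap) were 6, 7, 6 and 7 grid steps for members and 5 in every slice for the other spots. The difference was 1.5 ± 0.577 steps, in the same direction in 4 of 4 slices, and it was 2.5 steps with the highest 8% as members. To the nearest muscle-rich spot (the highest 4% by Acta1, Ckm, Mylpf and Tnnt3), which marks the panniculus under the skin, members had a median of 3, 3, 2.5 and 3 steps against 5 in every slice, a difference of -2.125 ± 0.25 steps. An exact two-sided sign-flip test over slices gave p = 0.13 for both distances, the smallest value that 4 slices allow. Spots rich in proliferation genes (the highest 4% by Mki67, Top2a, Cdk1, Birc5, Ube2c, Cenpf, Hmmr and Ccnb1) had medians of 7 steps from epidermis and 2 from muscle in every slice, the first of which equals that of members in slices 2 and 4, and 6 spots carried both labels.

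Split into 3 strips of equal width, the slices held 58, 139 and 59 members of 1514, 2657 and 2240 kept spots, with between 10 and 39 members in each strip of each slice. The score genes summed to 4747 ± 756, 4871 ± 521 and 4968 ± 1352 CPM in the members of the 3 strips (SD, n = 4 slices). The score chose the members, so these sums are a description. Members made up between 2.03% and 3.24% of the kept spots of the third strip and between 4.96% and 5.57% of those of the middle strip, lower in the third in 4 of 4 slices. Xist, expressed from the inactive X chromosome of females, made up 79.9% to 86.7% of the UMIs of Xist plus Uty, Kdm5d, Ddx3y and Eif2s3y (genes of the Y chromosome) in the third strip, against 9.73% to 15.1% in the first and 10.4% to 13.4% in the middle one, so the strips hold tissue of mice that differ in sex. Barcodes mark grid positions, so libraries share them: 750 barcodes lay over tissue in all 4 slices, and 9 barcodes belonged to a member in more than 1 slice.

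Other genes were then compared between members and all other kept spots of the same slice, on UMIs summed per slice and spot group, with the edgeR quasi-likelihood test. A gene was called at an adjusted p under 0.05 and a log2 fold change of at least 1 either way. Of 13490 genes fitted outside the score, 318 were called higher in members, which is 2.36%, and 2140 were called lower, which is 15.9%. Sums per slice and strip gave 180 and 1369. The median log2 fold change of all genes was -0.00094. Levels in members and other spots did not overlap over slices for 5819 of the 13490 genes, the background for each statement of no overlap below. Since the score ranks spots by melanocyte RNA, genes expressed by the same cells follow the ranking, and their tests describe what accompanies pigment-gene RNA from slice to slice. In sums over spots, fewer cells of a type and less RNA per cell cannot be told apart.

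Transcription factors and receptors of the melanocyte lineage were higher in members, with 6 of 8 genes called higher and none lower (background 2.36% higher) and a median log2 fold change of 2.39. Sox10, a transcription factor of neural crest derivatives, was at 22.4, 20.0, 26.1 and 33.8 CPM in members and at 2.93, 3.08, 3.88 and 3.91 CPM in other spots. The groups did not overlap, and the log2 fold change was 2.82 (SE 0.18, edgeR adjusted p = 1.13e-17). Mc1r, the receptor for melanocortin and agouti, was at 32.4, 28.8, 36.4 and 40.4 CPM against 3.21, 2.10, 4.22 and 4.29 CPM, a log2 fold change of 3.29. Kit, the receptor for KIT ligand, was at 42.5, 32.3, 46.7 and 71.8 CPM against 8.61, 8.52, 8.75 and 10.8 CPM, a log2 fold change of 2.31. Slice 4 was the highest of the 4 for all 3 genes in members. Pax3 was higher by 3.52 on the log2 scale, Cited1, a transcriptional coregulator gene, by 2.47, and Ednrb, the endothelin receptor gene, by 1.57.

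The other 2 lineage genes passed the adjusted p but not the fold. Mitf was at 53.7, 53.5, 52.3 and 62.7 CPM in members and at 34.5, 34.7, 36.0 and 39.3 CPM in other spots. Its log2 fold change was 0.57 (SE 0.09, edgeR adjusted p = 1.65e-06), and members held 9.48% ± 0.88 of its UMIs, against 33.3% ± 2.84 of those of Sox10. The Mitf levels of members and other spots did not overlap over slices, as was so for 5819 of all 13490 genes. Erbb3, a neuregulin receptor gene also expressed by keratinocytes, had a log2 fold change of -0.51, and members held 4.73% ± 0.82 of its UMIs.

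Of 10 melanosome and pigment genes outside the score, 9 were fitted and 5 were called higher (background 2.36%), with a median log2 fold change of 2.58. Oca2 (ENSMUSG00000030450), a melanosomal chloride channel gene, was at 76.1, 58.2, 89.5 and 101 CPM in members and at 6.86, 5.31, 6.76 and 7.76 CPM elsewhere, a log2 fold change of 3.53 (SE 0.11, edgeR adjusted p = 2.26e-29). Members held 44.97% ± 1.58 of its UMIs, a share like those of the score genes. Gpnmb (ENSMUSG00000029816), a membrane glycoprotein gene of melanosomes and of macrophages, was at 1202, 1064, 1337 and 1214 CPM against 205, 182, 206 and 180.5 CPM, a log2 fold change of 2.58. Tspan10, a tetraspanin gene, Mcoln3, an endolysosomal cation channel gene, and Gpr143, a melanosomal receptor gene, had log2 fold changes of 3.69, 3.57 and 3.33. Cd63, whose product sorts cargo in many cell types, Slc7a11, a cystine transporter gene, and Mfsd12, a lysosomal transporter gene, passed the adjusted p with log2 fold changes of 0.76, 0.42 and 0.64. Tpcn2 did not pass, at -0.07, and Atp7a was not fitted, with 2 UMIs in all members.

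The machinery that builds and moves melanosomes, which other cells use for related organelles, showed a smaller shift. Of 23 genes, 5 were called higher (background 2.36%) and none lower (background 15.9%), and the median log2 fold change was 0.48. The 5 were Rab38 and Rab32, small GTPases that sort melanosomal cargo, Rab27a and Mlph, which tie melanosomes to the myosin motor, and Hps4, a subunit of the complex that loads these GTPases. Rab38 was at 103, 80.0, 107 and 95.7 CPM in members and at 21.4, 18.95, 21.4 and 19.9 CPM elsewhere, a log2 fold change of 2.18, with no overlap. Myo5a, the motor itself, reached 0.79, below the fold threshold. Mreg, a regulator of melanosome transfer, was at -0.08 and did not pass.

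Among genes outside these lists that rose the most, Ptgds, encoding a prostaglandin D2 synthase, stood first. It was at 877, 789, 1100 and 1144 CPM in members and at 69.9, 61.4, 72.6 and 73.0 CPM in other spots, a log2 fold change of 3.75 (SE 0.06, edgeR adjusted p = 1.46e-39). Atp6v0d2, a subunit of the vacuolar proton pump, followed at 3.63, Glrb, a glycine receptor subunit, at 3.60 and Syt4, a synaptotagmin, at 3.56. Cartpt, a neuropeptide gene, was at 27.1, 9.99, 76.8 and 42.9 CPM in members and between 1.83 and 3.65 CPM elsewhere, with slice 2 the lowest and slice 3 the highest. Slc24a4, a cation exchanger gene related to Slc24a5, reached 3.53 and Fabp7, a fatty acid binding protein gene of glia, 3.43.

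**Figure D1:**
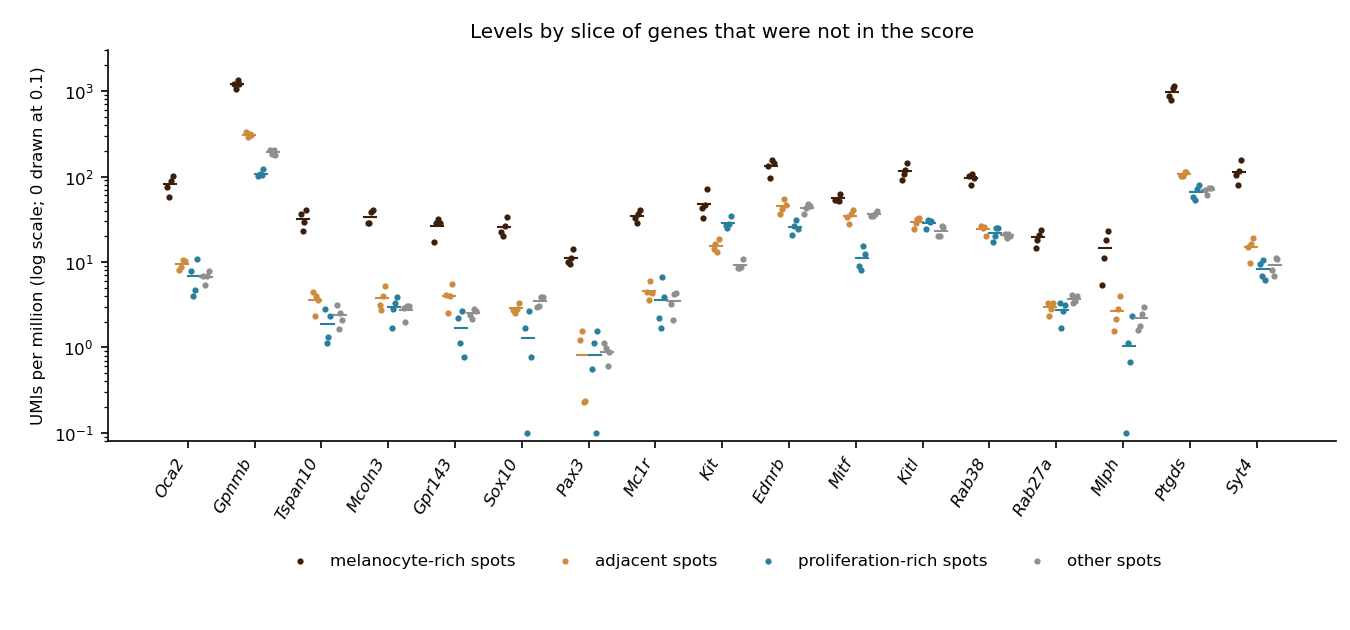
Levels in CPM (log scale) of 17 genes outside the score in the melanocyte-rich, adjacent, proliferation-rich and other spots. Each point is 1 slice and each bar the mean over 4 slices. Levels of Oca2, Sox10, Mc1r and Ptgds in the melanocyte-rich spots lie above all other points of the same gene, and Mitf differs less.

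Signals that act on melanocytes were fitted for 6 of 11 entries of the list, 1 of which was misspelled and not looked up. Of the 6, 2 were called higher (background 2.36%) and 1 lower (background 15.9%). Kitl, encoding the ligand of KIT, was at 90.8, 106, 119 and 144 CPM in members and at 19.9, 20.3, 26.1 and 25.8 CPM elsewhere, a log2 fold change of 2.26 (SE 0.08, edgeR adjusted p = 2.97e-26). Corin, a dermal papilla protease that acts in the agouti pathway, was higher by 1.87. Edn1, encoding endothelin 1, had a log2 fold change of -1.09, a call lost without slice 2 (-0.89) and without slice 3 (-0.95). Foxn1, a transcription factor of hair keratinocytes, was at 0.36, and Asip, Edn3 and Hgf were not fitted, with 2, 4 and 1 UMIs in all members.

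Regulators of the hair matrix and precortex, the keratinocytes that receive pigment, were higher for 6 of 15 genes and lower for none (background 2.36% higher), with a median log2 fold change of 0.61. Lef1, a transcription factor of WNT signaling in the precortex, was at 100, 130, 147 and 157 CPM in members and at 35.1, 40.3, 46.6 and 39.3 CPM in other spots, a log2 fold change of 1.66 (SE 0.07, edgeR adjusted p = 5.68e-23). Axin2, a target of WNT signaling, reached 1.37, the WNT ligand gene Wnt10a 1.13 and the homeobox genes Msx2, Hoxc13 and Msx1 1.12, 1.04 and 1.01. The call of Msx1 was lost without slice 2 (0.99) or slice 4 (0.95), and that of Wnt10a without slice 4 (0.99). Shh, the ligand of the lateral matrix, did not differ at this depth, with 33 UMIs in all members and a log2 fold change of -0.10 (SE 0.27).

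Of 14 shaft keratins fitted, 2 were called higher (background 2.36%) and 5 lower (background 15.9%), and 7 were not called. Krt35, an early keratin of the matrix and precortex, was at 1593, 1791, 1375 and 1672 CPM in members and at 372, 338, 380 and 302 CPM elsewhere, a log2 fold change of 2.15 (SE 0.07, edgeR adjusted p = 4.85e-29), and Krt36 rose by 1.87. Krt34, a later keratin of the cortex, was at 813, 466, 384 and 306 CPM against 1930, 1391, 1211 and 1011 CPM, a log2 fold change of -1.59, and Krt84, Krt86, Krt81 and Krt39 were lower with it. Slice 1 was the highest for Krt34, Krt86 and Krt81 on both sides. Krt39 rested on 3 UMIs in members, and its call was lost without slice 1 or slice 2. Of 49 keratin-associated protein genes fitted, which are expressed late in the shaft, 46 were called lower (background 15.9% lower) and none higher, with a median log2 fold change of -2.46.

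Of 9 inner root sheath genes fitted, 1 was called lower (Krt26, -1.06; background 15.9%) and none higher, and 7 passed the adjusted p with a smaller fold, as did 4250 of the 13490 genes. Of these, Krt73, Krt25 and Krt28 had log2 fold changes of 0.56, 0.34 and 0.34, and Krt72, Tchh, Gata3 and Krt27 of -0.57, -0.44, -0.28 and -0.23. Krt71 was at 7702, 7540, 7465 and 7654 CPM in members and between 6763 and 7359 CPM in other spots, a log2 fold change of 0.06 (edgeR adjusted p = 0.252). Proliferation genes outside the score used for proliferation-rich spots showed no call among 15 (background 2.36% higher and 15.9% lower), with a median log2 fold change of -0.15. Mki67 was at 85.5, 70.0, 128 and 115 CPM in members and at 89.0, 105, 109 and 96.5 CPM elsewhere, and the groups overlapped.

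Genes of the dermal papilla and sheath, the mesenchyme at the base of the bulb, were called higher for 6 of 9 fitted genes of a list of 12 (background 2.36%), with a median log2 fold change of 1.59. Crabp1, a retinoic acid binding protein gene, was at 25.9, 46.4, 35.6 and 33.8 CPM in members and at 10.7, 10.8, 10.5 and 10.8 CPM in other spots, a log2 fold change of 1.68 (SE 0.14, edgeR adjusted p = 4.91e-14). The R-spondin genes Rspo3 and Rspo2, which amplify WNT signaling, both reached 2.43, with 55 and 11 UMIs in all members, Alx4 reached 1.76, Inhba 1.59 and Enpp2 1.07. The call of Enpp2 was lost without slice 2 (0.991) or slice 3 (0.995). The list summed to 123, 159, 165 and 128 CPM in members against 60.005, 57.8, 61.2 and 72.6 CPM, and Enpp2 was its most abundant gene. The part of papilla cells in the shift of Kitl, Corin and the WNT genes was not tested.

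Lists of most other cell types were lower in members, beside a background of 15.9% of genes called lower. All 7 genes of the interfollicular epidermis, all 8 of skeletal muscle and all 10 of macrophages and antigen-presenting cells were called lower, as were 10 of 11 outer root sheath genes, 5 of 6 sebaceous genes, 6 of 7 fibroblast genes, 6 of 8 adipocyte genes and 7 of 8 genes of vessels. Of the 6 adipocyte calls, 4 (Adipoq, Cfd, Lep and Plin1) were lost without 1 or another slice. Krt14, the keratin of basal and outer root sheath cells, was at 250, 240, 341 and 310 CPM in members and between 2351 and 2588 CPM elsewhere. Aadac, a lipid esterase gene, had 0 UMIs in all members and 1099 in other spots, which is at least 25.02-fold lower against a floor of 3 UMIs over all members. Flg and Tspan8, epidermal genes, had 3 and 1 UMIs in all members, with means of 27.2 and 15.0 CPM in other spots.

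Schwann cells share the neural crest origin and several markers of melanocytes. Pmp22, a myelin protein gene, was at 27.1, 19.4, 29.3 and 37.1 CPM in members and at 82.3, 78.9, 87.6 and 94.4 CPM elsewhere, a log2 fold change of -1.68 (SE 0.10, edgeR adjusted p = 1.66e-18). Mbp, encoding myelin basic protein, was at 2.95, 5.29, 3.96 and 2.48 CPM against 21.7, 30.1, 33.4 and 30.1 CPM, a log2 fold change of -2.97. Neither gene overlapped between the groups, as was so for 5819 of all 13490 genes. Mag had 0 UMIs in members and 34 in other spots, too few to show a difference against a floor of 3 UMIs. In the list, 5 of the 6 fitted genes were lower (background 15.9%) and 1 was higher (background 2.36%). The call of Ncmap was lost without slice 1 (-0.84) or slice 3. The summed list, of which Pmp22 was the most abundant gene in members, fell from 163, 171, 202 and 206 CPM to 48.9, 43.5, 63.4 and 73.5 CPM. Mast cells also express Kit and Mitf. Their genes Fcer1a and Ms4a2 had 0 UMIs in members but 4 and 17 in all other spots, too few to show a difference. Of the 4 mast cell genes fitted, 2 were called lower (background 15.9%), 2 were not called and none was higher. The lower ones were Cma1 and Mcpt4, with log2 fold changes of -1.78 and -1.43. The mast cell list summed to 11.2, 4.70, 2.38 and 20.6 CPM in members against 25.9, 23.0, 25.8 and 28.1 CPM.

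**Figure D2:**
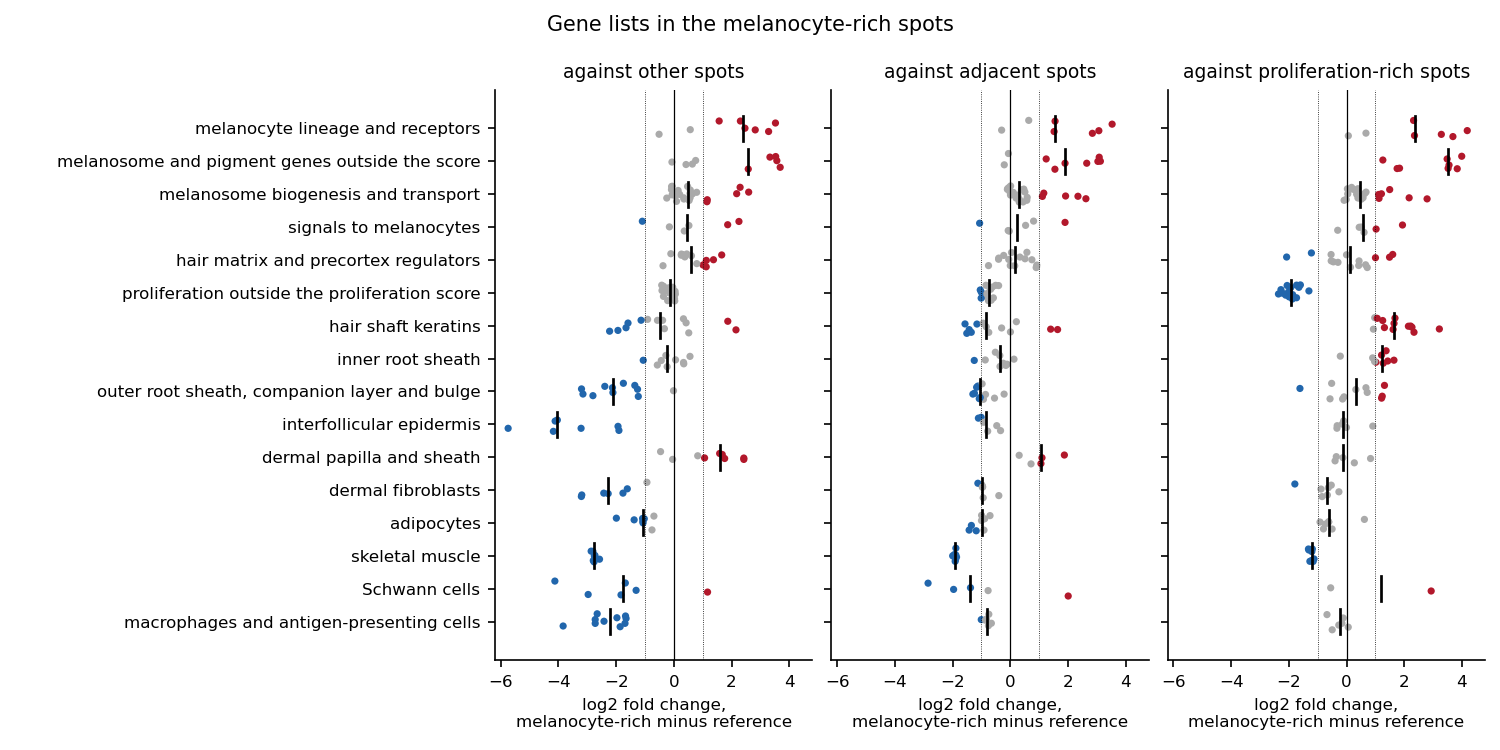
Log2 fold changes (melanocyte-rich minus reference spots) of the fitted genes of 16 lists in the 3 comparisons. Points are genes, red where called higher, blue where called lower and grey where not called, vertical bars are list medians and dotted lines mark a log2 fold change of 1 either way. The melanocyte lists lie to the right in all 3 panels, whereas the dermal papilla list lies to the right of 0 against other and adjacent spots and near 0 against proliferation-rich spots.

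A closer comparison was made with the 992 spots that touched a member without being one (249, 261, 242 and 240 in slices 1 to 4). Their median UMIs per spot, at 21820, 17427, 16762 and 15948, were nearer to those of members. Of 11125 genes fitted, 198 were called higher in members, which is 1.78%, and 562 lower, which is 5.05%. The counts were 123 and 226 with the highest 8% as members, and 91 and 294 with sums per slice and strip. The median log2 fold change of all genes was 0.01. Free RNA can spread between neighbouring spots, and its part in these values was not tested.

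Neighbours that scored among the highest 4% were members by the rule, so the adjacent spots exclude them, and part of the drop from members to adjacent spots follows from that choice. Of 7 lineage genes fitted, 5 were called higher in members (background 1.78%), and of 9 pigment genes outside the score, 7 were, with median log2 fold changes of 1.56 and 1.90. Oca2 was at 8.11, 8.64, 10.7 and 10.2 CPM in the adjacent spots, a log2 fold change of 3.04 (SE 0.12, edgeR adjusted p = 6.35e-19). Sox10 was at 2.76, 2.55, 2.78 and 3.33 CPM there, a log2 fold change of 3.07. Mitf was at 33.6, 27.9, 36.4 and 40.7 CPM, which stayed at 0.64, below the fold threshold. In the transport list, 5 of 23 genes were called higher (background 1.78%), led by Rab27a at 2.62 and Mlph at 2.35. Asphd2, which no list held, and Plxnc1, a semaphorin receptor gene of melanocytes, were higher by 3.29 and 3.06.

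Among keratinocyte genes of the bulb, Krt35 was at 533, 514, 519 and 419 CPM in adjacent spots, a log2 fold change of 1.64, and Kitl was at 24.3, 28.3, 32.2 and 33.1 CPM, a log2 fold change of 1.90. None of the 15 matrix and precortex regulators was called (background 1.78% higher and 5.05% lower), and 10 passed the adjusted p with a smaller fold, as did 2216 of all 11125 genes, among them Lef1 at 0.92 and Hoxc13 at 0.90. Of the 15 proliferation genes, 3 (Mcm3, Rrm2 and Hmgb2) were called lower (background 5.05%), and all 3 calls were lost without slice 2, at -0.88, -0.96 and -0.92. Dermal papilla genes were higher for 3 of 5 fitted (background 1.78%), Rspo3 at 1.88, Enpp2 at 1.10 and Crabp1 at 1.07. All 8 muscle genes and 43 of 47 keratin-associated protein genes were lower (background 5.05%), and Acta1, a skeletal actin gene, was at 246, 373, 471 and 220 CPM in members against 902, 1514, 1256 and 998 CPM.

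Levels by distance showed the same contrast in more detail. Rings of spots at 0, 1, 2, 3, 4 and 5 or more grid steps from the nearest member held 256, 992, 1277, 1130, 920 and 1836 spots. The summed score genes, which define the first ring, went from 4829 to 571, 402, 353, 291 and 234 CPM. Krt35 went from 1608 ± 175 to 496 ± 51.9 CPM at 1 step and then through 389, 319 and 286 to 209 CPM. Lef1 fell more slowly, from 134 ± 24.9 through 66.8, 43.0, 35.2 and 31.1 to 19.9 CPM. The proliferation score genes were instead highest 1 step away, at 630 ± 30.8 CPM against 375 ± 81.7 CPM in members and 425 CPM at 2 steps. Muscle genes were highest at 2 steps in each slice, at a mean of 11117 CPM against 982 CPM in members. Keratin-associated proteins were at 40124 ± 7652 CPM at 2 steps and 39240 ± 7910 CPM at 3 steps, against 9730 CPM in members, and in slice 2 they were higher at 3 steps.

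**Figure D3:**
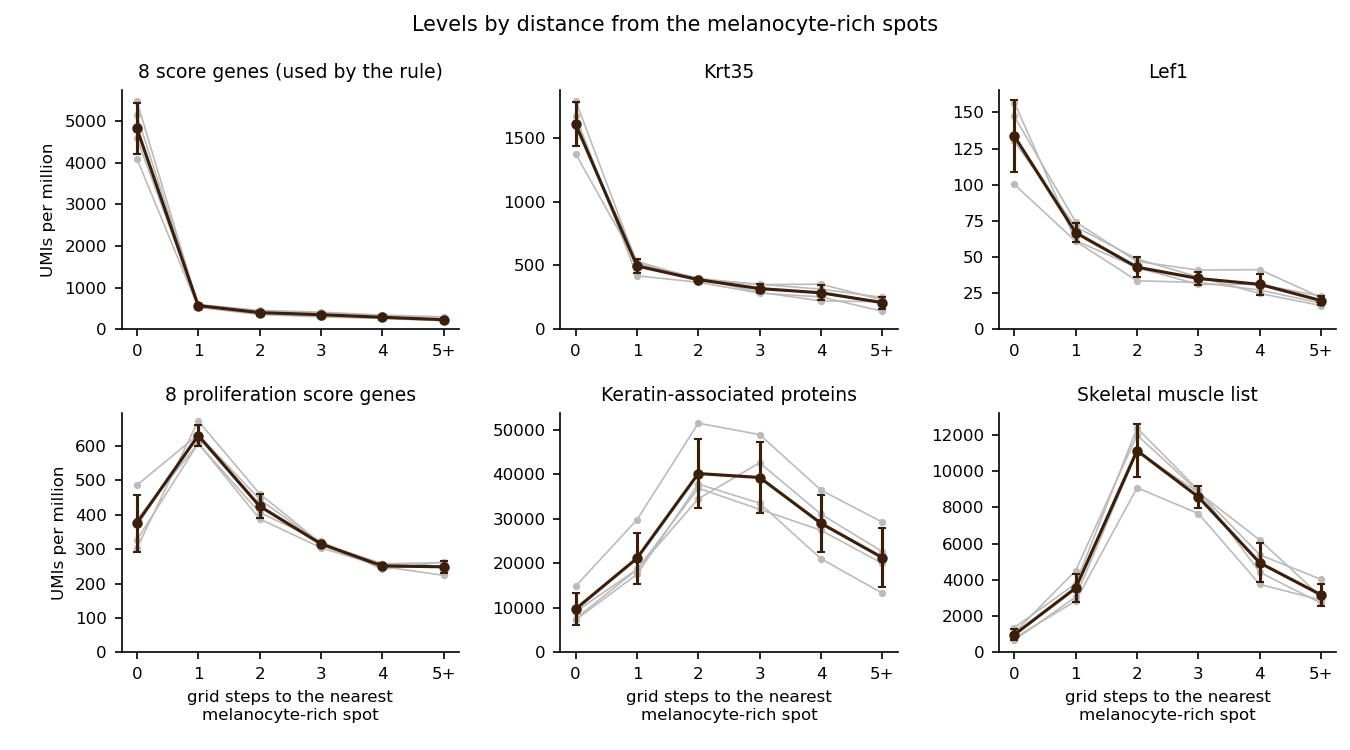
Levels in CPM by grid steps to the nearest melanocyte-rich spot (0 marks these spots themselves). Grey lines are the 4 slices, dark points and bars the mean and SD over slices. Krt35 and Lef1 are highest at 0 steps, the proliferation genes at 1 step (630) and the muscle genes at 2 steps, and the keratin-associated proteins at 2 and 3 steps.

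The adjacent spots were not alike on both sides of a member. They were divided by whether they lay nearer to the epidermis than the member they touched (380 spots) or farther from it (362 spots), which left 250 that were neither, with distance taken to the highest 10% of epidermis-rich spots. The proliferation score genes summed to 915 ± 27.02 CPM on the farther side, 375 ± 81.7 CPM in members and 271 ± 16.8 CPM on the nearer side (SD, n = 4 slices). The values of all 4 farther sides lay above all 4 member values. The keratin-associated proteins ran the other way, from 7363 ± 1184 through 9730 ± 3511 to 43611 ± 10376 CPM, and Krt34 went from 423 ± 79.3 through 492 ± 223 to 2587 ± 476 CPM. Between the farther side and the members the slices were not alike, since Krt34 was lower in members in slices 3 and 4 and the keratin-associated proteins were at 7335 CPM on the farther side and 7318 CPM in members in slice 4, whereas the nearer side was the highest in every slice. Krt35 was highest in members, at 1608 ± 175 CPM against 512 ± 61.1 on the farther and 370 ± 38.9 CPM on the nearer side.

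The dermal papilla list summed to 105 ± 18.4 CPM on the farther side, 144 ± 21.3 CPM in members and 31.8 ± 8.74 CPM on the nearer side. Lef1 was at 82.2 ± 8.81, 134 ± 24.9 and 38.9 ± 5.39 CPM in the same order. Kit was at 22.7 ± 3.88 CPM on the farther side and 7.08 ± 1.68 CPM on the nearer side, where all 4 slices lay lower. Mitf had the opposite order. It was at 20.8 ± 3.06 CPM on the farther side and 57.5 ± 11.0 CPM on the nearer side, which is the level of the members themselves (55.5 ± 4.83 CPM), whereas Sox10 was at 3.42 ± 1.29 and 2.03 ± 1.13 CPM against 25.6 ± 6.05 CPM in members. On the nearer side Mitf was thus as high as in members while Sox10 was not. These levels by side are a description, without a test.

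**Figure D4:**
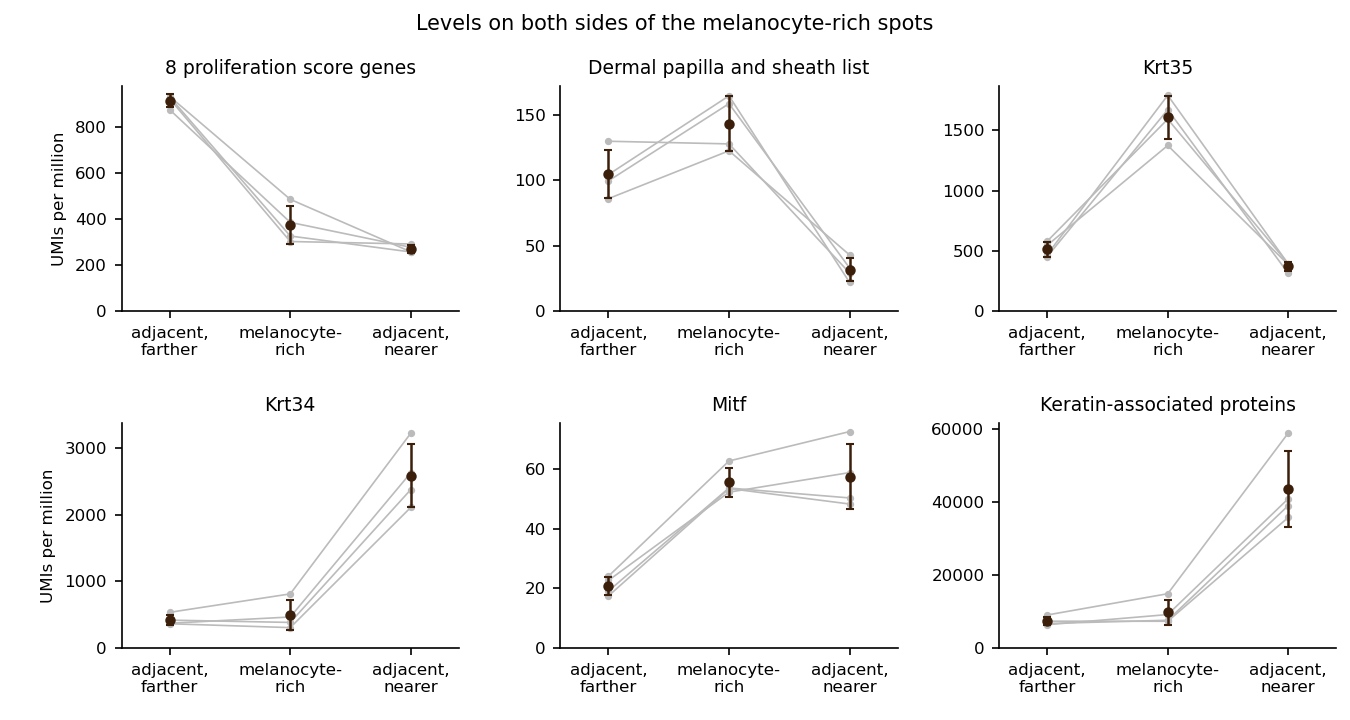
Levels in CPM in the adjacent spots farther from the epidermis, in the melanocyte-rich spots and in the adjacent spots nearer to the epidermis. Grey lines are the 4 slices, dark points and bars the mean and SD over slices. Proliferation genes fall from 915 to 271 toward the epidermis, keratin-associated proteins and Krt34 are highest on the nearer side, Krt35 is highest in the melanocyte-rich spots, and Mitf stays at the level of these spots on the nearer side.

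The third comparison set members against the proliferation-rich spots, which also lie in the lower follicle. The 6 shared spots were taken out, leaving 250 spots on each side, with median UMIs per proliferation-rich spot of 28316, 25746, 23803 and 22879. The 8 proliferation score genes chose these spots and were left out. Of 9758 genes fitted, 746 were called higher in members, which is 7.65%, and 549 lower, which is 5.63%. Sums per slice and strip gave 341 and 241. The median log2 fold change of all genes was -0.00962.

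Lineage genes were called higher for 5 of 7 and pigment genes outside the score for all 8 fitted (background 7.65%), with median log2 fold changes of 2.36 and 3.50. Mitf passed the fold here, at 53.2, 51.8, 54.4 and 64.6 CPM in members and 8.87, 7.95, 15.3 and 12.4 CPM in proliferation-rich spots, a log2 fold change of 2.32 (SE 0.17, edgeR adjusted p = 1.12e-13). Sox10 had 8 UMIs in all proliferation-rich spots and 139 in the members set against them, a log2 fold change of 4.18. Kit, in contrast, was at 41.3, 31.3, 49.3 and 69.8 CPM against 27.2, 24.99, 28.0 and 34.9 CPM. The values overlapped between slices, and its log2 fold change of 0.67 (edgeR adjusted p = 0.000156) lay below the fold threshold.

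Of 13 shaft keratins fitted, 11 were called higher in members and none lower, as were 6 of 9 inner root sheath genes and 12 of 44 keratin-associated protein genes (background 7.65% higher). Krt31, a cortex keratin, was at 720, 776, 490 and 292 CPM in members and at 152, 145, 85.4 and 62.1 CPM in proliferation-rich spots, a log2 fold change of 2.34. Krt35 was higher by 2.27 and Krt72, an inner root sheath keratin, by 1.64. Calls near the fold threshold (Krt25 at 1.02 and Krt86) were lost without slice 1, at 0.92 and 0.97. Hoxc13 was higher by 1.49 and Lef1 by only 0.42. Shh and Gli1, a ligand and a target of hedgehog signaling, were lower, at -2.08 and -1.22 on the log2 scale, the call of Gli1 being lost without slice 2 (-0.99).

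All 15 proliferation genes outside the score were lower (background 5.63%), with a median log2 fold change of -1.94. The reference spots were ranked by proliferation genes, so genes expressed by the same cells follow that ranking, and this direction is a description. Pcna, the sliding clamp of DNA replication, was at 133, 114, 150 and 124 CPM in members and at 369, 403, 412 and 369 CPM in proliferation-rich spots. Myb, a transcription factor of dividing progenitors, had a log2 fold change of -2.80, and Esco2, Fbxo5 and Kif14, genes of the cell cycle, had -2.73, -2.65 and -2.73. Outside the lists, Sptssb, a regulatory subunit of serine palmitoyltransferase, was higher by 3.89.

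No dermal papilla gene was called among 5 fitted (background 7.65% higher and 5.63% lower), with a median log2 fold change of -0.13. The list summed to 86.5, 139, 158 and 209 CPM in the proliferation-rich spots, a range that overlapped that of members. Corin was at 13.2, 18.1, 23.8 and 18.1 CPM in members and at 15.5, 28.4, 22.7 and 21.0 CPM in proliferation-rich spots, and the groups overlapped. All 8 muscle genes were called lower in members (background 5.63%), with a median log2 fold change of -1.20. The calls of 5 (Acta1, Ckm, Pvalb, Tnnc2 and Tnnt3) were, however, lost without slice 1. All 8 had log2 fold changes above 0 when members were taken as the highest 8% of spots and the proliferation-rich spots were kept at 4%, as given with the other alternatives.

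Members were also divided by how high they scored. Bands of spots in the highest 1%, in 1 to 2%, in 2 to 4% and, outside the members, in 4 to 8% of the score held 65, 63, 128 and 256 spots. Oca2 fell over these bands from 161 ± 43.8 through 81.0 and 39.7 to 17.5 CPM, and Sox10 from 52.5 ± 16.2 through 23.2 and 13.8 to 5.01 CPM. Mitf fell from 97.4 ± 18.6 and 55.3 CPM to 33.3 CPM in the lowest member band, which was the level of the non-members in 4 to 8% (33.9 CPM). The summed inner root sheath list rose from 25920 ± 3032 through 33912 to 39416 CPM in the members and was at 38357 CPM in 4 to 8%, and the proliferation score genes rose from 245 ± 81.3 through 385 and 428 to 518 CPM. Krt35 was at 1936 ± 202, 1822, 1319 and 847 CPM, and the dermal papilla list at 243 ± 78.3, 119, 105 and 70.4 CPM. A higher share of 1 group of genes lowers the others in CPM, and these bands carry no test because the score ranked the spots.

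**Figure D5:**
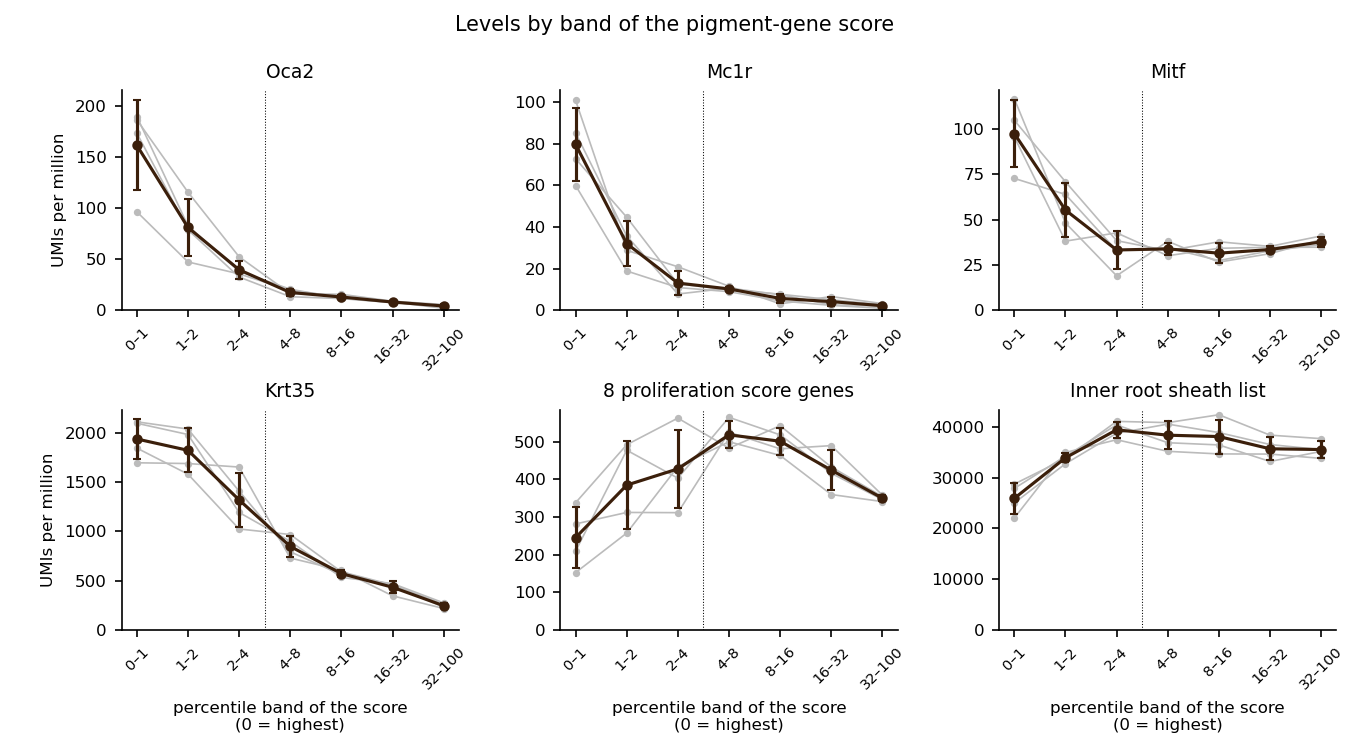
Levels in CPM by percentile band of the pigment-gene score (0 is the highest score, and the dotted line at 4% separates members from the other spots). Grey lines are the 4 slices, dark points and bars the mean and SD over slices. Oca2, Mc1r and Krt35 fall with the score, Mitf falls within the members to the level of the 4 to 8% band, and the inner root sheath list is lowest in the highest band.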

How the data were processed

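The deposited UMI counts per gene and spot (whole-number counts for 32286 features, made by the authors with Space Ranger 2.0.1 on genome build mm10) were read for the 4 slices together with the grid positions of the spots. All kept spots were used, since the sources used here do not say which spots belong to a section that the authors set aside. Spots of that section, whose structure was distorted, may therefore be in the sums. Counts were summed per slice and spot group. Tests used edgeR 4.0.16 in R 4.3.3 (TMM, filterByExpr, quasi-likelihood F test, slice as a block, Benjamini-Hochberg over all genes fitted); exact sign-flip tests were made with scripts in Python, and DESeq2 1.42.0 was an alternative. Both sums of a slice come from the same sections, which pairs them; deviations from group means correlated within slices by 0.0522 to 0.315. Counts were also simulated for the comparison with other spots (13380 genes), with 200 genes altered by a log2 fold of 1. At an adjusted p under 0.05 alone, the fit recovered 78% of these, and 4.29% of the genes passing were false. The fold threshold of the reported calls was not applied there, so these shares do not describe those calls. CPM are UMIs per 1000000 UMIs of the same spots, and log2 fold changes are scaled by TMM. The members and the gene lists were chosen with earlier results of these data known. Named genes are all list genes and, in each comparison, the 12 with the largest rise and the 8 with the largest fall among those called, changed alike in 4 of 4 slices and at 10 CPM or more in the higher sum, leaving out score genes and genes with clone or prediction names. Strips, division by side and levels by ring and band were computed as descriptions. The number of unused columns of per-sample values was 0. Krt85 and Krt74 were not analysed here, and 3 genes that the rule names are not reported here. The intervals given are SDs over slices.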

Additional observations from a re-analysis of the deposited data

Results flagged for a closer look

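The 3 values of members in which 1 slice lay far from the others were found among 61 measures examined over the 4 slices. Most were gene or list levels, and the rest were depth, genes detected, score, mitochondrial share and the share touching another member. Chance alone would mark about 1 in 20. Mitf was at 62.7 CPM in slice 4 and between 52.3 and 53.7 CPM in the other slices. Krt86, a hair shaft keratin gene, was at 673 CPM in slice 1 and between 250 and 300.4 CPM in the others. The summed list of signals to melanocytes was at 329 CPM in slice 4 and between 299 and 304 CPM in the others. Outside the comparisons, the reporter tdTomato had 103 UMIs over all spots (21, 31, 23 and 28 in slices 1 to 4), of which 2 lay in members. No sample without the reporter was analysed here to give its background.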

How the results depend on the processing

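Without the slice as a replicate block, 314 genes were called higher and 2103 lower against other spots, 197 and 535 against adjacent spots, and 747 and 546 against proliferation-rich spots, so pairing changed no count by over 1.5 times, and among list genes leaving it out ended the calls of C1qa, Krt1 and Mcm3 against adjacent spots and of Ovol1 against proliferation-rich spots. DESeq2 called 281 and 1882, 179 and 417, and 687 and 511. Sums per slice and strip gave fewer calls, 180 higher and 1369 lower against other spots, 91 and 294 against adjacent spots, and 341 and 241 against proliferation-rich spots (smaller sums and fewer genes fitted). Taking the highest 8% as members gave 123 higher and 226 lower against adjacent spots and a distance of 2.5 steps to the epidermis. The distance to muscle was -1.75 steps with the highest 10% of reference spots, an alternative chosen after seeing the data. Without 1 slice in turn, the counts ranged from 296 to 337 higher and 1931 to 2102 lower against other spots, 205 to 209 and 512 to 626 against adjacent spots, and 683 to 839 and 559 to 629 against proliferation-rich spots, and the distances from 1.33 to 1.67 and from -2.17 to -2 steps. Of 9854 comparisons of a single gene with an alternative, 9377 kept direction and side of the threshold, 269 lost the call, 189 gained one and 19 reversed, all in muscle genes against proliferation-rich spots. With the highest 8% as members and proliferation-rich spots kept at 4%, these were log2 fold changes of 0.761 for Acta1, 0.725 for Apobec2, 0.667 for Atp2a1, 0.796 for Ckm, 0.585 for Myh4, 0.659 for Mylpf, 0.662 for Pvalb, 0.626 for Smpx, 0.716 for Tnnc2, 0.787 for Tnnt3, 0.673 for Trdn and 0.674 for Xirp2. With the score over Tyr, Trpm1, Slc45a2 and Slc24a5, they were 0.061 for Acta1, 0.173 for Apobec2, 0.114 for Ckm, 0.211 for Smpx, 0.003 for Tnnc2, 0.154 for Tnnt3 and 0.074 for Xirp2. The cause was not tested. No reversal came from another scaling.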

Other observations

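Metallothioneins, small metal-binding proteins, divided the members from the proliferation-rich spots. Mt1 was at 577, 532, 519 and 576 CPM in members and at 1617, 1579, 1468 and 1457 CPM in proliferation-rich spots, and Mt2 had a log2 fold change of -2.05, both called lower by edgeR. Mt4, the form of stratified epithelia, was higher instead, with a log2 fold change of 1.93 there and of 1.12 against other spots, where its levels overlapped between slices (1766, 1628, 900.5 and 697 CPM in members against 896, 570, 444 and 313 CPM). That second call was lost without slice 2 (0.98).

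Red blood cell genes were lower in members for 4 of 5 fitted genes against other spots (background 15.9%). Hbb-bs, a hemoglobin gene, was at 436, 337, 165 and 114 CPM in members and at 821, 695, 663 and 623 CPM elsewhere, with the lowest values in slices 3 and 4 on both sides. Saa3, an acute phase gene, was at 5.98, 6.02, 18.7 and 16.4 CPM in members and at 56.6, 71.0, 96.1 and 84.6 CPM in proliferation-rich spots, a log2 fold change of -2.81.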
